A study of Mus musculus with 20 samples.

Results

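The thin filament, the titin filament with its M-band and the Z-disc of the cardiac sarcomere were followed through 39 genes, chosen by name and all present among the 34291 gene rows of the count table. They comprise 10 genes of the thin filament, 6 of titin, the M-band and myosin-binding protein C, 13 of Z-disc structure and 10 that encode stress-linked partners of the Z-disc and titin. RNA came from whole frozen hearts of C57BL/6 mice, whose sex is not given in the labels. The rapamycin group (10 mice) ate a diet with 14 ppm rapamycin, which blocks the nutrient-sensing kinase mTOR, from 24 months of age for 3 months. The control group (10 mice) ate the control diet for the same time. Hearts of both groups were thus taken at 27 months, and no young animals enter the comparison. Libraries carry the diet and the number of their titles.

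The sarcomere is the contractile unit of striated muscle. Thin filaments of actin carry tropomyosin and the troponin complex, which switches contraction on when calcium binds. They are anchored at the Z-disc by alpha-actinin and slide past thick filaments of myosin, while titin spans from the Z-disc to the M-band as a molecular spring. The Z-disc is also a site at which mechanical load is sensed, and some of its partners, such as the ankyrin repeat protein encoded by Ankrd1, shuttle to the nucleus and are known to be induced by load.

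Libraries held 7039514 to 12458309 counts. The 39 genes together took 4.43% ± 0.921 of all counts in controls, against 4.88% ± 0.320 in rapamycin hearts (mean ± SD of 10 hearts each). Control 19 stood apart: it held 2.09% there, against 4.23% to 5.62% in the other 9 controls and 4.40% to 5.30% with rapamycin. In that library 5 lung markers summed to 23990 normalised CPM (counts relative to the library total, scaled by the trimmed mean of M-values, TMM), against 0.410 to 351 in the other 19. The 10 macrophage markers summed to 3457 there, against 450 to 1299 in the others, but 1 gene, Lyz2, gave 2972 of the 3457. Control 19 had the lowest level of its group for 35 of the 39 genes and the lowest of all 20 libraries for 34. Results are therefore given with all 20 libraries and again without control 19. In the 19 libraries other than control 19 the markers of the labelled tissue led, with 10 cardiomyocyte markers summing to 44500 to 68980 normalised CPM. In control 19 those markers summed to 20180, below the 23990 of the 5 lung markers. Among the 19, lung markers were highest in control 1 (351), rapamycin 15 (136) and control 20 (60.8), and 6 liver markers in rapamycin 9 (343). The part of lung transcripts in the low values of control 19 was not tested. Fewer muscle cells and less RNA per muscle cell cannot be told apart in whole-heart RNA.

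With all 20 libraries no gene of the 39 rose or fell (edgeR quasi-likelihood test, adjusted p under 0.05 over 13940 genes), while 0.689% of all genes tested rose and 2.68% fell, 3.36% in either direction. For none of the 38 genes tested were the groups free of overlap, as they were for 0.0143% of all genes with rapamycin higher and 0.0574% with rapamycin lower. The slow skeletal troponin I gene Tnni1 did not pass the filter on low counts. At an unadjusted p under 0.05, 9 genes lay above 0 and 0 below, where 8.21% of all genes lay above and 13.5% below. DESeq2 also called 0 in either direction. The fold changes of 32 of the 38 genes were above 0, with a median of 0.21 on the log2 scale, against 47.5% of all genes and a median of -0.01. Scaling by library totals alone left 26 above 0 and 12 below, with medians of 0.10 for these genes and -0.13 for all genes. The values ran from -0.54 for Acta1 to 0.37 for Actn2.

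Without control 19, 2 genes rose and 0 fell, both of the thin filament: the tropomyosin gene Tpm1 and Lmod2, which encodes a nucleator of thin filament actin. In that fit 1.05% of the 13977 genes tested rose and 2.33% fell, 3.38% in either direction. The median of the 38 genes was 0.11 and 30 were above 0, against 51.4% of all genes and a median of 0.00466 over all genes. At an unadjusted p under 0.05, 12 genes lay above 0 and 0 below, where 8.94% and 10.5% of all genes did. Leaving out 1 more library kept the call of Tpm1 in 11 of 19 fits and that of Lmod2 in 8 of 19, with edgeR adjusted p of 0.0149 to 0.0628 and 0.0136 to 0.0708. Neither was called when control 1, control 20 and rapamycin 15 were left out together with control 19. These 4 libraries had the highest sums of lung markers, and without them 0 of the 38 genes rose and 0 fell.

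**Figure D1:**
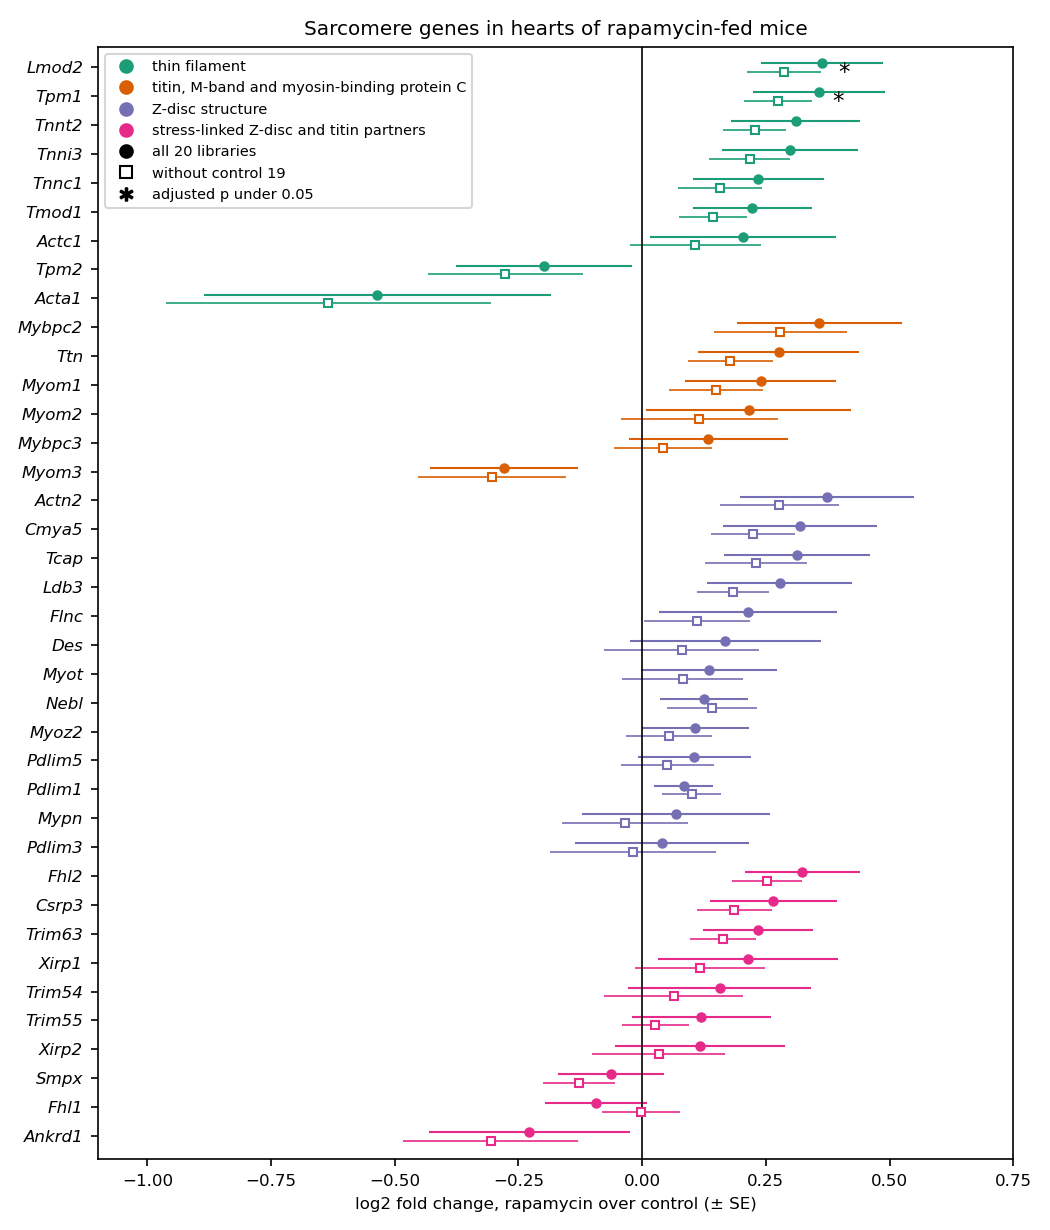
Log2 fold changes of rapamycin over control with standard errors for the 38 genes tested, ordered within 4 roles and coloured by role. Filled circles use all 20 libraries and open squares leave out control 19, and asterisks mark an adjusted p under 0.05. Most values lie to the right of 0 in both fits, Acta1 lies farthest to the left, and the 2 asterisks belong to Lmod2 and Tpm1 without control 19.

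Macrophage genes were the only cell type markers called with all 20 libraries. Fibroblast, endothelial, smooth muscle and adipocyte markers had median log2 fold changes of -0.07, -0.03, 0.04 and 0.08, with none called. Macrophage markers fell for 8 of 10 genes with all libraries and for 9 of 10 without control 19. Their sum was 650 to 3457 normalised CPM in controls (650 to 1299 without control 19) and 450 to 894 in rapamycin hearts. Cardiomyocyte markers outside the 39 genes had a median log2 fold change of 0.27 over 10 genes, all above 0 and none called. Without control 19 their median was 0.18 and 1 of them, the ventricular myosin light chain gene Myl2, rose. The 8 atrial markers all lay below 0 with a median of -0.51 and none called (-0.62 and none called without control 19), and their sum ranged from 1230 to 6463 in controls and from 652 to 3629 with rapamycin. The part of these shifts in the values of the sarcomere genes was not tested.

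**Figure D2:**
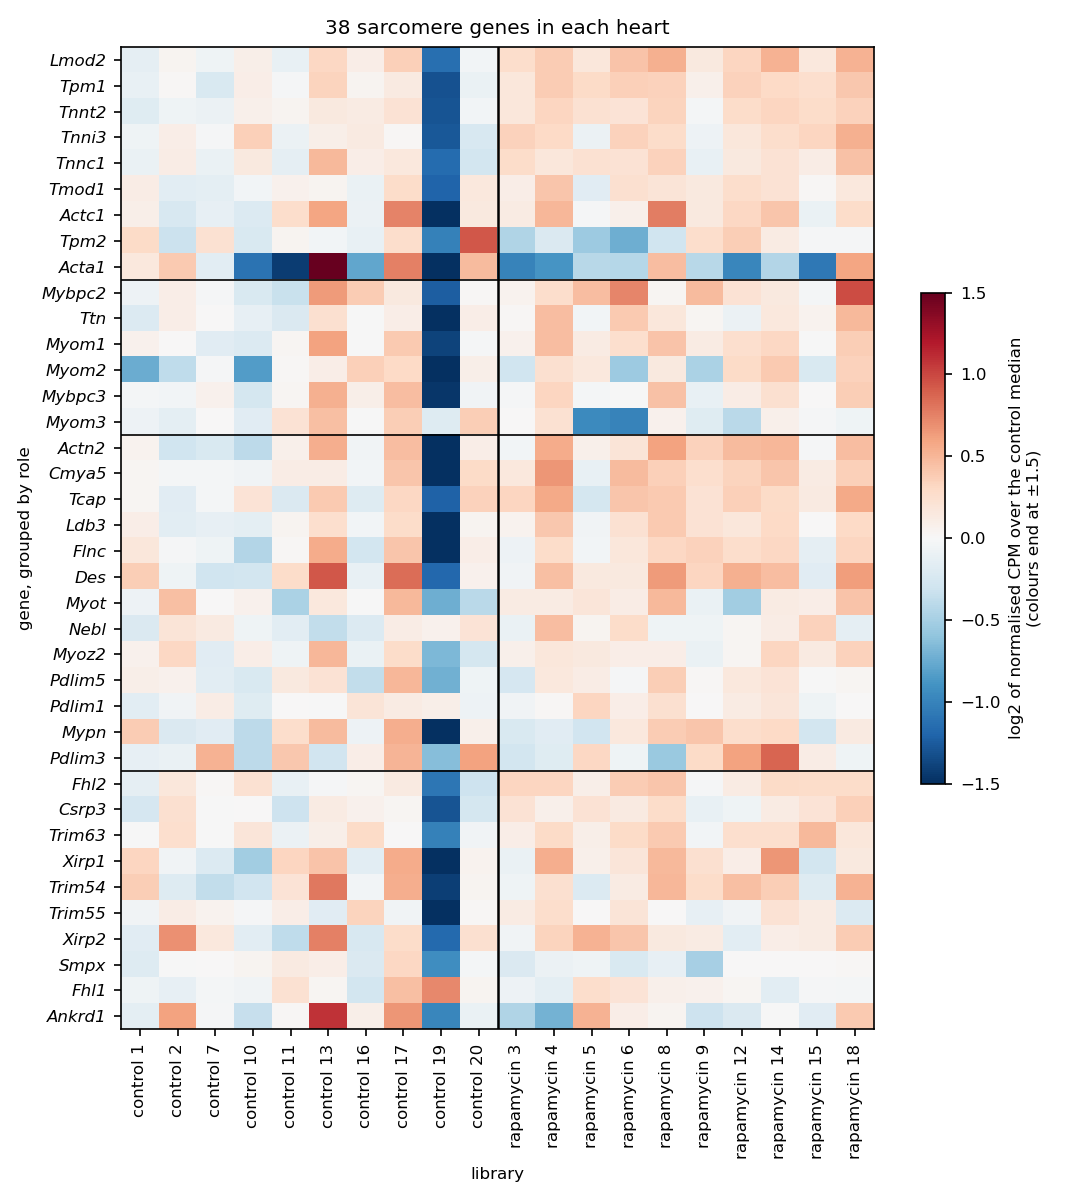
Log2 of normalised CPM over the control median for the 38 genes tested (rows, grouped by role) in each of 20 hearts (columns, controls left and rapamycin right), with red above and blue below the control median. Control 19 forms a mostly blue column that spares Fhl1, Nebl and Pdlim1 and is pale at Myom3, and Acta1 varies most from heart to heart.

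Transcripts of the thin filament core were the most abundant of the 39 genes when counted per kilobase of exon. In controls the means per kilobase were 5256 normalised CPM for the troponin T gene Tnnt2, 3255 for the cardiac actin gene Actc1, 2789 for the cardiac troponin I gene Tnni3, 2442 for the troponin C gene Tnnc1 and 1296 for Tpm1. The highest gene of the Z-disc was Tcap, whose product caps titin there (1168), and the highest stress-linked gene was Ankrd1 (821). Titin itself, with 114 kb of exon, stood at 30.3 per kilobase, although its 3437 normalised CPM made it the fourth most counted of the 39 genes in controls. At the lower end stood Tpm2 (12.6), Nebl (11.5), Mybpc2 (4.52), Myom3 (0.985) and Tnni1 (0.355). All of these but Nebl are best known from skeletal or smooth muscle. Exon lengths are unions over the isoforms of the basic annotation, so levels of genes with long alternative exons, such as Tpm1, are understated.

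**Figure D3:**
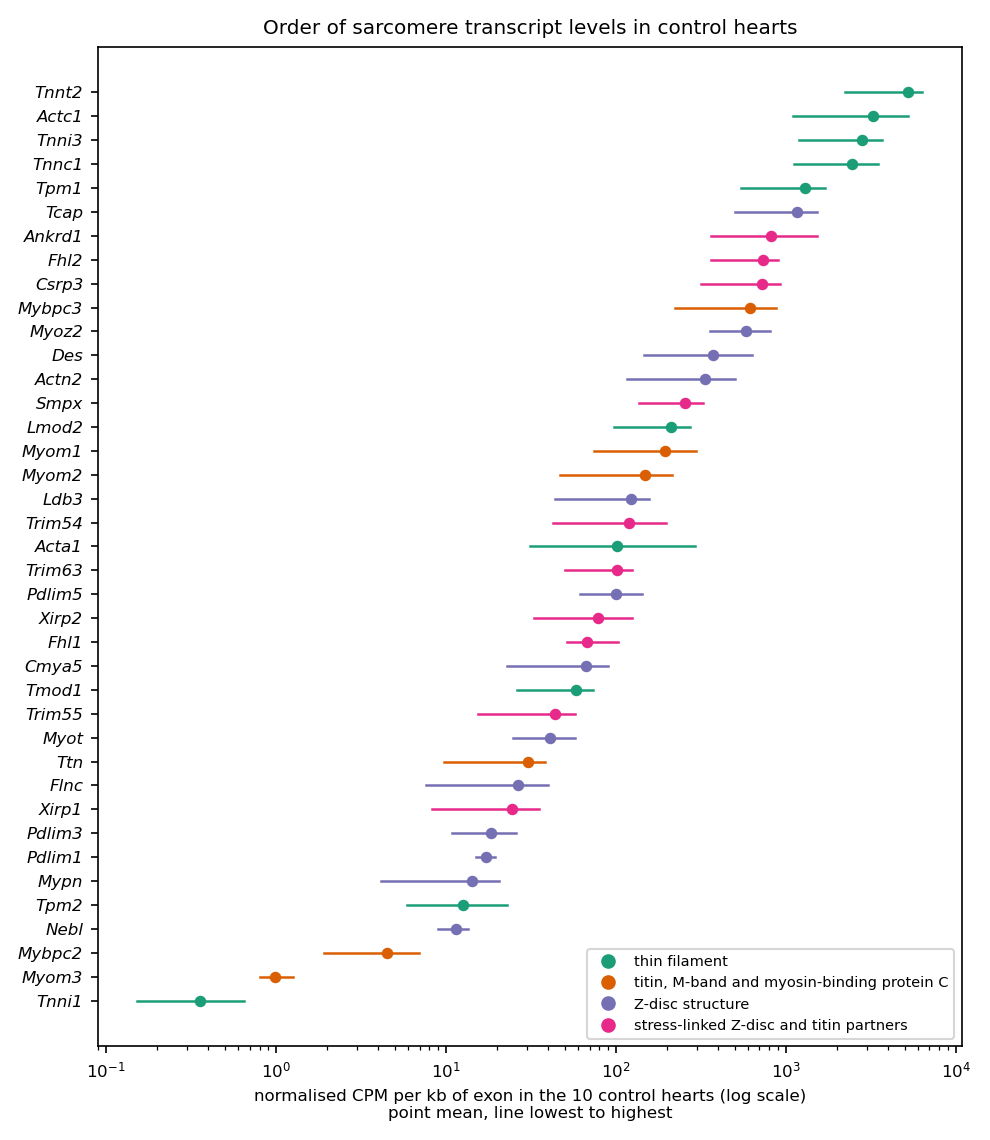
Normalised CPM per kilobase of exon in the 10 control hearts for all 39 genes on a log axis, with points at the mean and lines from the lowest to the highest heart. The troponins, cardiac actin and Tpm1 head the order and Tnni1 ends it, and the lines of neighbouring genes overlap except at the lower end, where Nebl, Mybpc2, Myom3 and Tnni1 are each separate from the next.

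Among the thin filament genes, 7 of the 9 tested were above 0 and 4 of them had an unadjusted p under 0.05, with a median of 0.23, or 0.16 without control 19. Tpm1 encodes the tropomyosin of heart muscle, which lies along actin and blocks or exposes its myosin sites. It ran from 2619 over a median of 6468 to 8174 normalised CPM in controls and from 6805 over 8072 to 8595 with rapamycin. All 10 rapamycin hearts lay above the control median and 5 lay above every control, yet the groups overlapped. Its log2 fold change was 0.36 ± 0.13 (SE, adjusted p = 0.127 by edgeR), or 0.27 ± 0.07 (1.21-fold, adjusted p = 0.0307 by edgeR) without control 19.

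Lmod2 ran from 193 over a median of 422 to 542 normalised CPM in controls and from 465 over 537 to 613 with rapamycin. All 10 rapamycin hearts were above the control median, and only control 13 (522) and control 17 (542) reached into their range. The log2 fold change was 0.36 ± 0.12 (adjusted p = 0.0949 by edgeR), or 0.29 ± 0.07 (1.22-fold, adjusted p = 0.0350 by edgeR) without control 19.

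The troponin genes lay above 0 without passing. Tnnt2, which ties troponin to tropomyosin, averaged 6638 ± 1469 normalised CPM in controls against 8230 ± 606 in rapamycin hearts (mean ± SD of 10 hearts each), and 7 of 10 rapamycin hearts lay above every control. Its log2 fold change was 0.31 ± 0.13 (adjusted p = 0.171 by edgeR), or 0.23 ± 0.06 without control 19 (adjusted p = 0.0531 by edgeR). Tnni3, the inhibitory subunit, ran from 1085 over a median of 2629 to 3359 in controls and from 2481 over 3211 to 3800 with rapamycin, and 1 of 10 rapamycin hearts exceeded every control. Its log2 fold change was 0.30 ± 0.14 (adjusted p = 0.208 by edgeR), or 0.22 ± 0.08 without control 19. The calcium-binding subunit gene Tnnc1 stood at 0.23 ± 0.13, or 0.16 ± 0.08 without it. The pointed-end capping gene Tmod1 stood at 0.22 ± 0.12, or 0.14 ± 0.07 without control 19, but 40.8% of its exon bases lie opposite exons of Tstd2, and the strand setting of the counting is not given in the sources used here.

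Neither actin gene was called, and their values had opposite signs. Actc1, the main actin gene of the adult heart, ran from 1617 over a median of 4585 to 7678 normalised CPM in controls and from 4270 over 5302 to 7813 with rapamycin (log2 fold change 0.20 ± 0.19, or 0.11 ± 0.13 without control 19). Acta1, the skeletal actin gene that is also active in fetal and loaded heart muscle, ran from 45.4 over 130 to 421 in controls and from 61.3 over 95.7 to 195 with rapamycin. Control 13 was the highest, followed by control 17 (218) and rapamycin 18 (195), and 2 of 10 rapamycin hearts lay above the control median. The log2 fold change of Acta1 was -0.54 ± 0.35 (adjusted p = 0.385 by edgeR), or -0.63 ± 0.33 (adjusted p = 0.300 by edgeR) without control 19. Without control 13 it was -0.20 (adjusted p = 0.719 by edgeR). Its biological coefficient of variation of 0.532 with all 20 libraries was the largest of the 38 genes. Among skeletal muscle markers the fast myosin gene Myh4 was at 0 in all 20 libraries, and the 15 skeletal markers summed to 9.90 to 14.8 normalised CPM in controls and 9.70 to 16.4 with rapamycin.

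**Figure D4:**
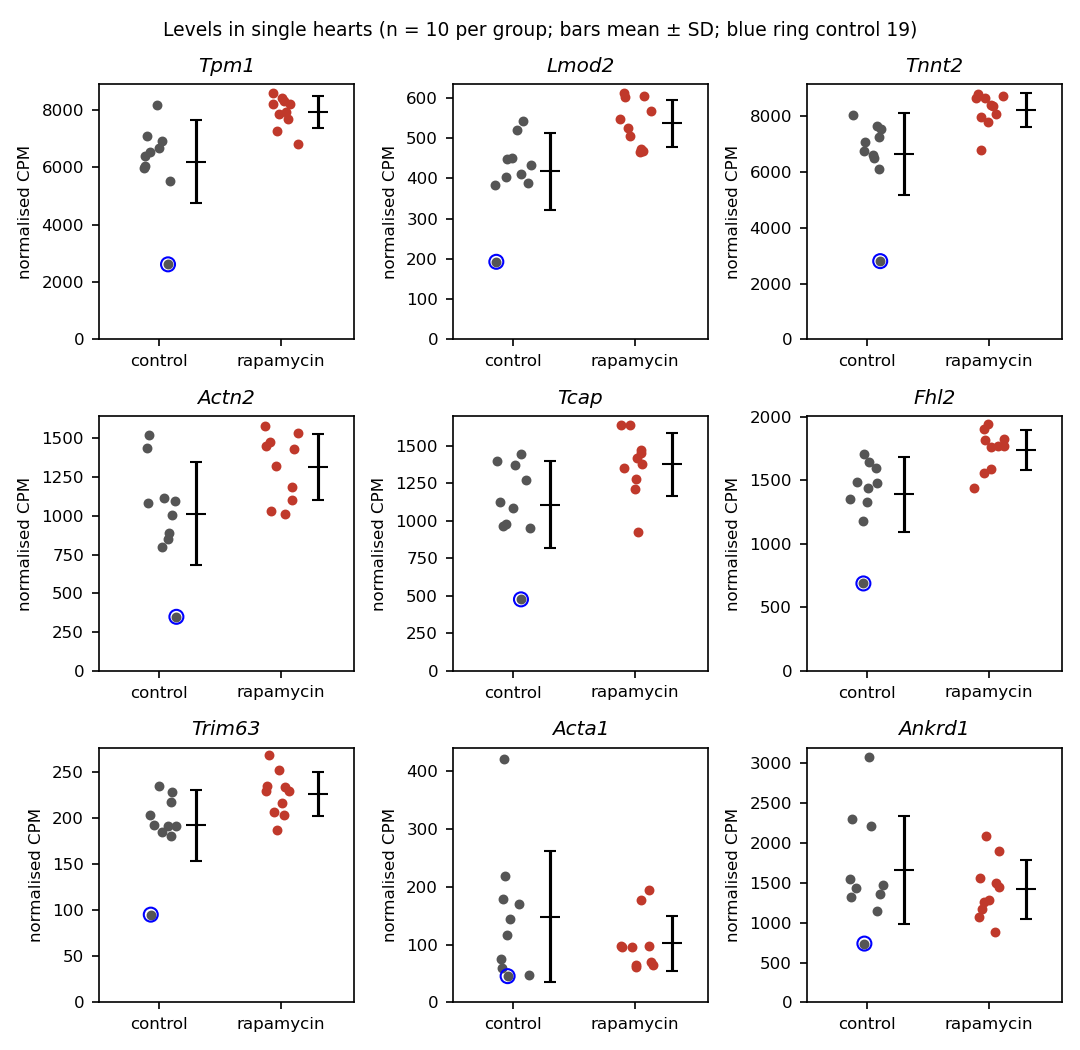
Normalised CPM of 9 genes in single hearts, 10 per group, with bars at the mean ± SD and a blue ring around control 19. Tpm1, Lmod2, Tnnt2 and Fhl2 sit higher with rapamycin with overlap between the groups, control 19 is the lowest point of every panel, and Acta1 and Ankrd1 have their highest point in a control heart.

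Promoters of 34 of the 39 genes were matched by symbol among RefSeq promoters of build GRCm38.p6. The authors mapped to the earlier MGSCv37, so these coordinates do not apply to the count table. The last 150 bases before the annotated start are shown for the genes on which the comparison turns: Tpm1 and Lmod2, which rose without control 19, Tnnt2, Tpm2 as the partner of Tpm1, and both actin genes. Capitals mark the M-CAT element, bound by TEAD factors and searched as CATTCC on either strand, and the CArG box, bound by serum response factor.
Tpm1, chr9:67049214-67049363, minus strand: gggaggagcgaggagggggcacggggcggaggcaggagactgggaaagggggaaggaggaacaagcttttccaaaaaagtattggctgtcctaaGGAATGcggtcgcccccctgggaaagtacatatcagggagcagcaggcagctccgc
Lmod2, chr6:24597621-24597770, plus strand: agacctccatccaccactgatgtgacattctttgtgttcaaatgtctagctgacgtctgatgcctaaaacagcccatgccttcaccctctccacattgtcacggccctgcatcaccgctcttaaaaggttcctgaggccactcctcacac
Tnnt2, chr1:135836184-135836333, plus strand: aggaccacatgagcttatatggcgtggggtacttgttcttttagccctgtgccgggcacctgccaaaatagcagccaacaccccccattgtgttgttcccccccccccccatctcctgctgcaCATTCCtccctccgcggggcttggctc
Tpm2, chr4:43523555-43523704, minus strand: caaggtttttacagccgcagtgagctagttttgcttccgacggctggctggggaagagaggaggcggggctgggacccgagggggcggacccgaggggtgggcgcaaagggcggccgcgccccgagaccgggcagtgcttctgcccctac
Actc1, chr2:114052876-114053025, minus strand: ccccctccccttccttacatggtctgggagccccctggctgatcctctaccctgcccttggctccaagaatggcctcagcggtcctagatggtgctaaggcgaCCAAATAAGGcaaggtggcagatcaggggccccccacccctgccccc
Acta1, chr8:123894776-123894925, minus strand: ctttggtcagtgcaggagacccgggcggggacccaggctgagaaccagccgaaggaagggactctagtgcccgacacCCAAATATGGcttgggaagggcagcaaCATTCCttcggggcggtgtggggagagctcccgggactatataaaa

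In these windows Tpm1 held an M-CAT element beginning 56 bases before the start and Tnnt2 one at 27. Both actin genes held a CArG box, at 47 bases for Actc1 and at 73 for Acta1, which also held an M-CAT element at 46. Over 250 bases before the start, 7 of the 34 genes (20.6%) held a CArG box, against 1.62% of 27025 genes in the table: Acta1, Actc1, Fhl1, Fhl2, Ldb3, Myom1 and Nebl. Their log2 fold changes ran from -0.54 to 0.32. An M-CAT element was present in 13 (38.2%, against 14.4% of all genes) and a MEF2 box, the site of MEF2 factors, in 6 (17.6%, against 3.42%). The letters TATAAA of a TATA box, searched on either strand, occurred in 6 (17.6%, against 14.3%). Acta1 and Trim63 held them in the direction of the gene, while Fhl1, Fhl2, Mypn and Pdlim5 held them on the opposite strand only. The CArG and MEF2 boxes were searched by their usual consensus on both strands, and at 1 start of Fhl2 the MEF2 and TATA letters overlap. A match describes letters in the window and not a bound site.

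Ratios of paralogous genes, which need no scaling factor, were compared for 4 pairs by a 2-sided permutation test with 100000 resamples and adjusted over the 4. The log2 ratio of Tpm2 to Tpm1 counts was -7.71 ± 0.444 in controls, against -8.27 ± 0.392 in rapamycin hearts (mean ± SD of 10 hearts each). The difference of -0.56 passed (permutation p = 0.00676, adjusted p = 0.0270), and also passed without control 19 (-0.54), with ranges of -8.20 to -6.80 in controls and -8.92 to -7.64 with rapamycin that overlap. Its call was lost in 8 of 20 comparisons without 1 library, namely rapamycin 3, 4, 5, 6 or 8 or control 1, 7 or 20 (permutation adjusted p up to 0.0609). The call was also lost without the 4 libraries with lung transcripts, control 1, 19 and 20 and rapamycin 15 (-0.38, permutation adjusted p = 0.246). Among these, control 20 and control 1 were also the highest controls for Tpm2 (54.2 and 34.6 normalised CPM). Tpm2 itself, the beta-tropomyosin gene, known from skeletal and smooth muscle, ran from 14.1 over 28.4 to 54.2 normalised CPM in controls and from 17.1 over 26.2 to 36.7 with rapamycin (log2 fold change -0.20 ± 0.18, adjusted p = 0.540 by edgeR; -0.28 ± 0.16 without control 19 and -0.06 without control 20). Its highest value was in control 20, the library with the highest sum of atrial markers (6463). The 10 smooth muscle markers summed to 475 to 781 in controls and 516 to 773 with rapamycin, with means of 630 and 670. Smtn alone averaged 286 and 328 of these. Of the 10, 6 lay above 0 and 4 below, from -0.73 to 0.23 with none called. The part of atrial and smooth muscle transcripts in the ratio was not tested.

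The other pairs did not pass. The log2 ratio of Acta1 to Actc1 was -5.26 ± 0.798 in controls and -5.85 ± 0.518 with rapamycin, a difference of -0.59 (permutation p = 0.0659, adjusted p = 0.132), or -0.58 without control 19, and of the 20 comparisons without 1 library it passed in 1, without control 11 (-0.77, permutation adjusted p = 0.0192). Of the stretches of 50 bases in the Acta1 transcript 2.22% occur exactly in another gene, and 0 of those of Actc1. Tnni1, replaced by Tnni3 in heart muscle around birth, had 2 to 9 counts per library (0.194 over a median of 0.383 to 0.825 normalised CPM in controls, 0.206 over 0.396 to 0.967 with rapamycin). Its ratio to Tnni3 differed by -0.34 (permutation p = 0.313), or -0.19 without control 19. The ratio of the M-band genes Myom2 to Myom1 was -0.61 ± 0.384 in controls and -0.62 ± 0.291 with rapamycin (difference -0.0086, permutation p = 0.954), or -0.03 apart without control 19.

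**Figure D5:**
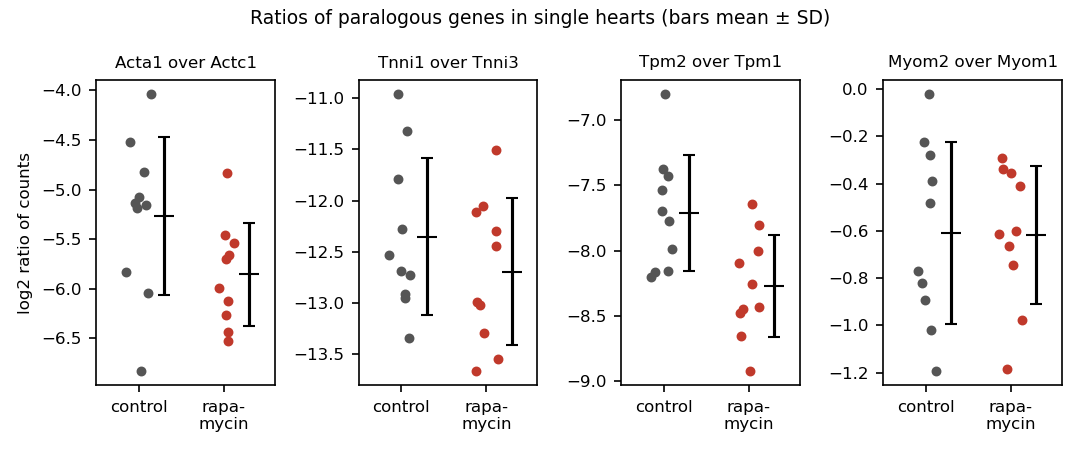
Log2 ratios of counts for 4 pairs of paralogous genes in single hearts, 10 per group, with bars at the mean ± SD. The ratio of Tpm2 to Tpm1 lies lower with rapamycin (-8.27 against -7.71), the ratio of Acta1 to Actc1 also lies lower but with wider scatter in controls, and the ratios of Myom2 to Myom1 overlap, from -1.19 to -0.02 in controls and from -1.18 to -0.29 with rapamycin.

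For titin, the M-band and myosin-binding protein C, 5 of 6 genes were above 0 and none was called, with a median of 0.23, or 0.13 without control 19. Titin (Ttn) ran from 1113 over 3679 to 4330 normalised CPM in controls and from 3462 over 3957 to 5144 with rapamycin, and 3 of 10 rapamycin hearts exceeded every control. Its log2 fold change was 0.28 ± 0.16 (adjusted p = 0.329 by edgeR), or 0.18 ± 0.09 without control 19. Counts per gene cannot separate the stiff and compliant titin isoforms. The splicing regulator of titin, Rbm20, stood at 0.25 ± 0.14 (adjusted p = 0.304 by edgeR).

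With all 20 libraries the largest value of this group was that of Mybpc2, the fast skeletal myosin-binding protein C gene. It ran from 6.92 over 16.2 to 25.2 normalised CPM in controls and from 15.9 over 19.1 to 32.0 with rapamycin (log2 fold change 0.36 ± 0.17, adjusted p = 0.213 by edgeR, or 0.28 without control 19). Rapamycin 18 and rapamycin 6 were the highest libraries, and the groups overlapped. The cardiac gene of the same family, Mybpc3, had 0.13 ± 0.16, or 0.04 ± 0.10 without control 19, and a mean of 2555 normalised CPM in controls.

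The M-band genes differed among themselves. Myom1, which encodes myomesin, ran from 420 over 1103 to 1681 normalised CPM in controls and from 1102 over 1311 to 1514 with rapamycin (0.24 ± 0.15, or 0.15 ± 0.09 without control 19). Myom2, which encodes M-protein, ran from 238 over 846 to 1082 and from 578 over 936 to 1114 (0.21 ± 0.21, or 0.12 ± 0.16 without control 19). Both ranges overlapped, with control 19 the lowest. Myom3, which is best known from skeletal fibres, ran from 4.49 over 5.12 to 7.002 normalised CPM in controls and from 2.55 over 4.98 to 6.01 with rapamycin. Rapamycin 6 (2.55), rapamycin 5 (2.65) and rapamycin 12 (3.87) lay below every control and the other 7 overlapped with them (log2 fold change -0.28 ± 0.15, adjusted p = 0.280 by edgeR, or -0.30 ± 0.15 without control 19). Myom3 had 23 to 72 counts per library.

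Of the structural Z-disc genes all 13 were above 0 with 20 libraries and none was called, with a median of 0.14, but 6 of them (Myoz2, Mypn, Nebl, Pdlim1, Pdlim3 and Pdlim5) lay below 0 when scaled by library totals alone. Without control 19, 11 of 13 were above 0, with a median of 0.10, and the titin- and actinin-binding Mypn (-0.04) and the LIM protein gene Pdlim3 (-0.02) lay below 0. Alpha-actinin 2 (Actn2), the crosslinker of thin filaments at the Z-disc, ran from 349 over 1044 to 1518 normalised CPM in controls and from 1011 over 1378 to 1582 with rapamycin. It had the largest value of the 38 genes with all 20 libraries (0.37 ± 0.18, adjusted p = 0.219 by edgeR). Without control 19 it stood at 0.28 ± 0.12, below Lmod2 and Mybpc2. Tcap ran from 476 over 1104 to 1445 in controls and from 922 over 1398 to 1639 with rapamycin, with 4 of 10 rapamycin hearts above every control (0.31 ± 0.15, adjusted p = 0.220 by edgeR, or 0.23 ± 0.10 without control 19).

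The other Z-disc genes were not called either. Cmya5, whose product myospryn binds desmin and titin, stood at 0.32 ± 0.16, or 0.22 ± 0.09 without control 19. Ldb3, which binds alpha-actinin, stood at 0.28 ± 0.15, or 0.18 ± 0.07 without it. The filamin C gene Flnc went from 0.21 ± 0.18 to 0.11 ± 0.11 and the intermediate filament gene Des from 0.17 ± 0.19 to 0.08 ± 0.16 when control 19 was left out. Desmin varied widely among controls, from 444 over 1007 to 1924 normalised CPM, with control 13 and control 17 the highest, and its log2 fold change was 0.29 without control 13 and 0.27 without control 17. Myot (0.14), Nebl (0.13), Myoz2 (0.11), Pdlim5 (0.11), Pdlim1 (0.08), Mypn (0.07) and Pdlim3 (0.04) were smaller, and without control 19 Myot (0.08), Myoz2 (0.05) and Pdlim5 (0.05) were smaller still. For Cmya5 20.7% of exon bases lie opposite exons of another gene, and for Pdlim1 19.8% of stretches of 50 bases occur exactly in other genes, so their counts are uncertain.

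Nebl, the heart's short nebulin relative, and Pdlim1 were not low in control 19. That library held 126 normalised CPM of Nebl and 46.7 of Pdlim1, in the middle of ranges of 93.4 to 139 and 38.7 to 50.0 in controls. Their log2 fold changes were 0.13 ± 0.09 and 0.08 ± 0.06 with all libraries and 0.14 ± 0.09 and 0.10 ± 0.06 without control 19.

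Of the stress-linked genes 7 of 10 were above 0 and none was called, with a median of 0.14, or 0.05 without control 19. Fhl2, a LIM protein that binds titin, ran from 688 over 1456 to 1705 normalised CPM in controls and from 1440 over 1769 to 1942 with rapamycin. It was above every control in 7 of 10 rapamycin hearts, at 0.32 ± 0.12 (adjusted p = 0.114 by edgeR), or 0.25 ± 0.07 (adjusted p = 0.0523 by edgeR) without control 19. Trim63, the titin-binding ubiquitin ligase MuRF1, ran from 95.1 over 192 to 235 in controls and from 187 over 229 to 268 with rapamycin, with 3 of 10 above every control (0.23 ± 0.11, adjusted p = 0.222 by edgeR, or 0.16 ± 0.07 without control 19). Csrp3, the muscle LIM protein gene, stood at 0.27 ± 0.13, or 0.19 ± 0.08 without it.

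The other ubiquitin ligases of the family, Trim54 (0.16 ± 0.18) and Trim55 (0.12 ± 0.14), and the actin-binding repeat protein genes Xirp1 (0.21 ± 0.18) and Xirp2 (0.12 ± 0.17) were not called. Without control 19 these values were 0.06 for Trim54, 0.03 for Trim55, 0.12 for Xirp1 and 0.03 for Xirp2. For Trim54 26.6% of exon bases lie opposite exons of another gene. Ankrd1 ran from 737 over 1453 to 3077 normalised CPM in controls and from 887 over 1369 to 2091 with rapamycin, and control 13, control 17 and control 2 were the 3 highest libraries. Its log2 fold change was -0.23 ± 0.20 (adjusted p = 0.537 by edgeR), or -0.31 ± 0.18 (adjusted p = 0.364 by edgeR) without control 19. Without control 13 it was -0.08 (adjusted p = 0.819 by edgeR). Smpx stood at -0.06 ± 0.11, or -0.13 ± 0.07 without control 19, and Fhl1 at -0.09 ± 0.10, and Fhl1 was highest in control 19 (311 normalised CPM) and at -0.0017 without it.

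Of 32 sarcomere genes outside the 39, 29 were tested and 24 were above 0, with a median of 0.14 and none called (edgeR, with 5 above and 2 below 0 at an unadjusted p under 0.05), while DESeq2 called 1, the adhesion-linked vinculin gene Vcl (0.15, adjusted p = 0.0327 by DESeq2, against 0.116 by edgeR). Without control 19 Myl2 rose (0.38 ± 0.10, adjusted p = 0.0430 by edgeR), the same result as given above for the cardiomyocyte markers. Myh6, Myl2 and Myl3 belong to both lists, and Myocd is both a smooth muscle marker and one of the regulators below. The non-muscle and slow tropomyosin gene Tpm3 had the smallest p of this list (-0.29 ± 0.09, adjusted p = 0.0751 by edgeR) and fell when scaled by library totals alone (-0.42, adjusted p = 0.0313 by edgeR). Among 23 regulators and chaperones 20 were above 0, with a median of 0.18 and none called by edgeR or DESeq2 (4 above and 1 below 0 at an unadjusted edgeR p under 0.05). Capn3 (0.47 ± 0.16), the serum response factor coactivator Mkl1 (-0.27 ± 0.10) and Mef2a (0.28 ± 0.10) had the smallest p, with edgeR adjusted p of 0.0998, 0.112 and 0.117. Among listed genes of factors that bind the motifs above, Mef2d stood at 0.16 ± 0.10, Mef2c at 0.13 ± 0.07, Tead1 at 0.06 ± 0.08 and Srf at 0.05 ± 0.14, beside the value of Mef2a.

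Control hearts varied more than rapamycin hearts in most of these genes, as they did in all genes. The coefficient of variation was larger in controls for 34 of 38 genes (89.5%), against 76.2% of all genes tested, with medians of 26.0% in controls and 14.1% with rapamycin. Without control 19 it was larger in controls for 27 of 38 (71.1%), against 59.2% of all genes, and the control median was 17.3%. The difference in spread was not tested.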

How the data were processed

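The authors deposited raw read counts per gene symbol for 20 libraries and a table of 700 genes in CPM. That CPM equals the deposited count relative to its column total (696 genes matched by symbol, all within 0.001 CPM), and none of the 39 genes is in it. Per the series' design text, 50 bp paired-end reads of poly(A) RNA were mapped uniquely to MGSCv37. Aligner, counter and strand setting: not given in the sources used here. The submitters' processing notes list edgeR but no role for it.

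Groups and columns follow sample titles. The column of rapamycin 4 spells its title with 1 letter fewer. Replicates are mice per the design text (10 per group).

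Counts were tested with edgeR 4.0.16 in R 4.3.3: default expression filter (13940 genes), TMM, quasi-likelihood F-test, Benjamini-Hochberg over all genes, threshold 0.05. SE is the absolute log2 fold change divided by the square root of F. DESeq2 1.42.0 was an alternative. Library totals of 7039514 to 12458309 set the counting error. Ratios used counts plus 0.5. Scripts were tested on simulated data. Exon lengths, exon overlaps and shared stretches of 50 bases come from GENCODE M21 (GRCm38).

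The 39 genes and the other lists were chosen with earlier results of these data known. Values in single libraries are given for genes called in either fit, the 2 smallest p and the largest fold change of each role, and the 4 pairs. Of the other lists, called genes and the 3 smallest p are named. Further genes were named after their values were seen.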

Additional observations from a re-analysis of the deposited data

Results flagged for a closer look

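The highest or lowest library of a group was singled out when its gap to the nearest other library, as a share of the group's range, passed Dixon's critical value for 10 values. Of 86 groups of values tested, 18 were singled out, and chance alone gives about 1 in 20. Control 19 was the low library in 14 of them, at normalised CPM of 2806 for Tnnt2 (next lowest control 6101), 1085 for Tnni3, 2619 for Tpm1, 192.9 for Lmod2, 82.98 for Tmod1, 1113 for Ttn, 476.4 for Tcap, 266.3 for Ldb3, 269.7 for Cmya5, 298.2 for Csrp3, 687.9 for Fhl2, 168.5 for Smpx, 40.28 for Trim55 and 95.11 for Trim63. Rapamycin 9, the library with the highest sum of liver markers (343 normalised CPM), was low for Tnnt2 (6796, next 7798) and Smpx (228, next 274.7). Control 13 was high for Acta1 (420.9, next 218.5) and control 20 for Tpm2 (54.24, next 34.59).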

How the results depend on the processing

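No paired analysis was possible because each library number occurs in 1 group only. The median log2 fold change of the members stayed above 0 in every fit, at 0.10 to 0.22 under the 7 other settings, 0.11 to 0.26 when 1 library was left out and 0.07 to 0.16 when 1 more was left out after control 19 (chosen after seeing the data). Scaling by library totals alone moved the median of all genes from -0.01 to -0.13 and that of the members from 0.21 to 0.10, 0.24 above all genes against 0.22. Under it Myoz2 (-0.0023), Mypn (-0.034), Nebl (-0.0064), Pdlim1 (-0.040), Pdlim3 (-0.073) and Pdlim5 (-0.0045) lay below 0, and 1 other sarcomere gene (Tpm3) and 1 regulator (Mkl1) fell. The number of members that rose was 0 to 2 without 1 library, with 2 only without control 19. It was 0 without the 4 libraries with lung transcripts and 0 to 5 after control 19. That of other sarcomere genes that rose was 0 to 1 (1 without control 19 or control 17) and 0 to 4, and 1 with DESeq2. The number that fell there was 0 to 1 without 1 library (1 without control 17 or control 1), and the number of regulators that rose was 0 to 1 after control 19. Without 1 library Mypn ran from -0.035 to 0.14, Pdlim3 from -0.057 to 0.11, Trim55 from 0.026 to 0.17, Xirp2 from 0.034 to 0.21 and Fhl1 from -0.13 to -0.0017. After control 19 they ran from -0.088 to 0.024, -0.12 to 0.048, -0.0057 to 0.067, -0.022 to 0.12 and -0.037 to 0.058. The difference in the Tpm2 to Tpm1 ratio was -0.63 to -0.46 without 1 library and -0.38 without the 4 libraries with lung transcripts, that of Acta1 to Actc1 -0.77 to -0.45 and that of Myom2 to Myom1 -0.074 to 0.057, or -0.076 without the 4 libraries. The cause of these changes was not tested.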
